A study of Rattus norvegicus with 10 samples.

Results

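T cell markers are genes whose products carry, transmit or dampen the signal of the T cell receptor, or serve T cell adhesion. Here 10 of them are described in irradiated rat liver: Cd2, Cd3d, Cd3e, Cd3g, Cd4, Cd5, Cd8a, Cd8b, Lck and Zap70. They were chosen by name, as array probes whose accession belongs to one of these symbols. All 10 were found, each with 1 probe, among 13426 genes with a symbol and a value on every array. Of the 10, 8 were well above background on all arrays of at least 1 group, whereas neither Cd3e nor Cd5 reached that level anywhere.

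The study asked how MASM, a derivative of the plant alkaloid matrine, changes the response to lethal total-body irradiation (TBI). RNA from the liver of 10 male Wistar rats, taken at 24 h, was hybridized to 1-colour whole-genome arrays. The control group of 3 rats received 0 Gy. The TBI group of 3 rats received 6.5 Gy of gamma rays at 2 Gy/min by the sample labels (legends in the paper give another dose), and the MASM + TBI group of 4 rats received MASM by stomach tube at 30 mg/kg per day for 3 days before the same dose. No group received MASM without irradiation here, and the ages of the rats are not given in the sources used here. Cdkn1a, a p53 target, lay between 8.01 and 8.84 on the log2 scale in control rats and between 12.80 and 14.06 in irradiated rats, with no overlap, so the arrays match the labels on who was irradiated.

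The T cell receptor cannot signal alone: its chains associate with the CD3 subunits, and the coreceptors CD4 and CD8 bring the kinase LCK to the complex, which lets ZAP-70 dock and pass the signal on. In the liver, T cells lie in the sinusoids together with natural killer (NK) cells, B cells and Kupffer cells, the resident macrophages. Lymphocytes are among the most radiosensitive cells of the body. Several of the 10 genes are shared: rat macrophages carry CD4, and rat NK cells carry CD8α, CD2, LCK and ZAP-70, whereas the CD3 subunits mark T cells.

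In TBI rats, 3 of the 10 genes were lower than in control rats at an adjusted p under 0.05 and a fold of at least 1.5 (Cd2, Cd3e and Cd3g), against 2.49% of 40945 probes. None was higher, against 2.01% of probes; at an unadjusted p under 0.05 in limma, with the same 1.5-fold cut here and in all unadjusted counts below, 3 were lower, against 6.09%, and 1 was higher, against 6.53%. In MASM + TBI rats, 2 were lower than in control rats (Cd3e and Cd3g), against 1.43%, and none was higher, against 0.926%. Their counts at an unadjusted p in limma were 6 lower, against 4.55%, and 0 higher, against 3.52%. MASM + TBI rats differed from TBI rats in 1 gene, Cd8b, which was lower, against 0.625% of probes, and none was higher, against 0.767%. At an unadjusted p in limma that comparison gave 3 lower, against 4.83%, and 1 higher, against 3.15%. Across the 7 irradiated rats, 3 genes were lower than in control rats (Cd2, Cd3e and Cd3g), against 2.13%, and 0 were higher, against 1.35%. The 2 comparisons with control share their control rats. With 75th percentile scaling the count in TBI rats was again 3, while the lower probes were 5341 instead of 1021. With background correction by normexp it was 1 (Cd3g), with 348 lower probes. A filter on dim probes, which removes Cd3e, left 2 (Cd2 and Cd3g), and no share of all probes is given for it. With the methods' t-test, run with unequal variances and with an adjustment that the methods do not name, 0 genes passed between any 2 groups. Few probes passed it: 4 lower and 6 higher in TBI, 10 and 18 in MASM + TBI, and 3 and 0 between the irradiated groups. Unadjusted, a setting added after seeing the data, that test gave Cd2, Cd3e and Cd3g lower in TBI rats and 0 higher, against 1586 and 1314 probes.

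**Figure D1:**
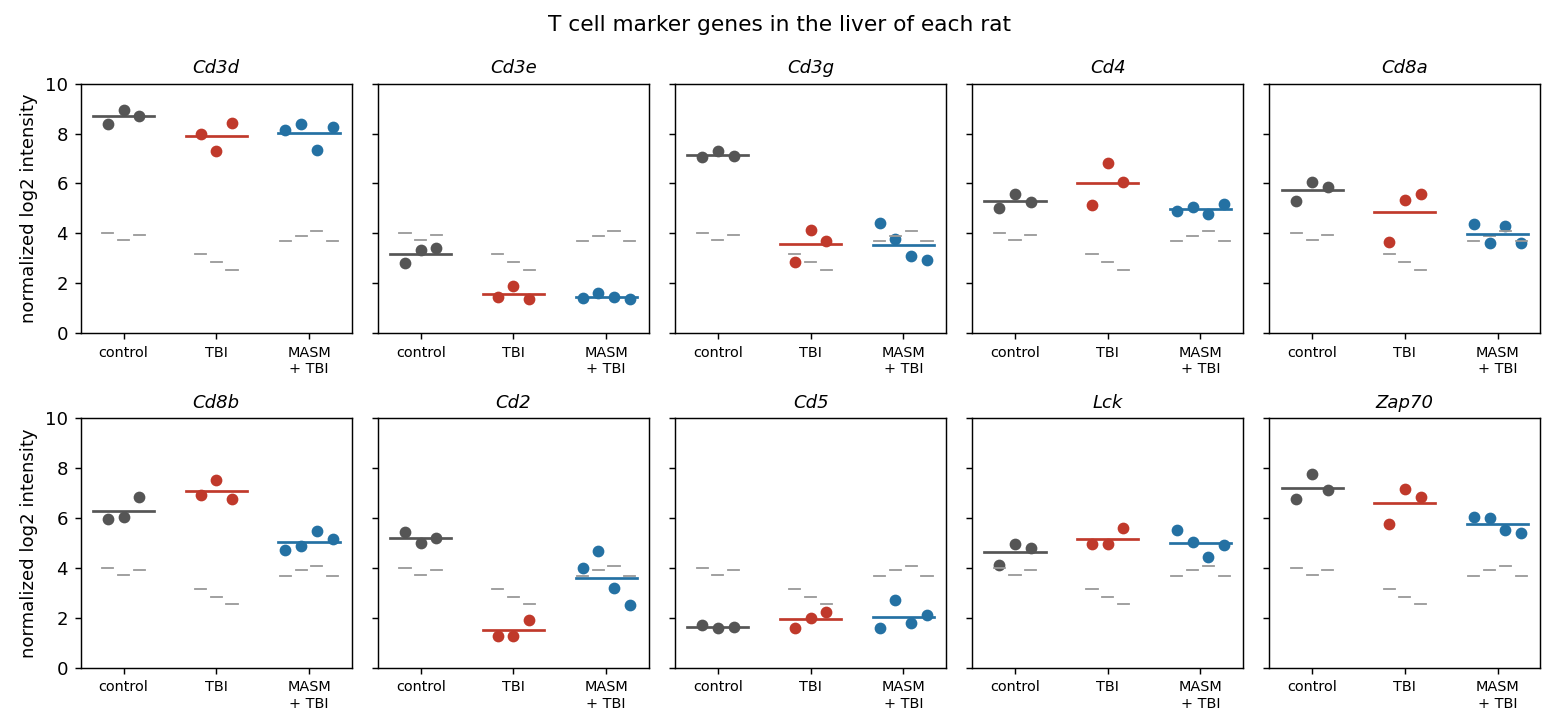
Normalized log2 intensity (y axis) of each T cell marker gene in each rat, by group (x axis). Points are rats, coloured lines are group means, and a grey tick marks the dimmest probe still well above background on that rat's array. Cd3g stood above 7 in every control rat and below 4.5 in every irradiated rat, and Cd2 was below that tick in every TBI rat.

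Cd3g encodes the gamma subunit of CD3. Its probe gave 7.07, 7.31 and 7.09 on the normalized log2 scale in control rats, 2.84, 4.14 and 3.68 in TBI rats, and 4.40, 3.76, 3.09 and 2.93 in MASM + TBI rats. Every irradiated rat was far below every control rat, and the irradiated groups overlapped each other. Cd3g fell by 3.60 in TBI rats (SE 0.43, limma, adjusted p = 0.00381) and differed by -3.61 in MASM + TBI rats (SE 0.40, adjusted p = 0.00343), in 3 of 3 and 4 of 4 rats. The difference between MASM + TBI and TBI was -0.01 (95% interval -0.92 to 0.90). The probe was well above background on 3 of 3 control arrays, 2 of 3 TBI arrays and 1 of 4 MASM + TBI arrays, so these sizes are not exact. In whole liver, fewer T cells and less RNA per T cell cannot be told apart, here or for any gene below.

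Cd3e, the epsilon subunit, was well above background on no array, so no size is given for its difference. Its values were 2.79, 3.31 and 3.41 in control rats, 1.43, 1.89 and 1.37 in TBI rats, and 1.40, 1.59, 1.43 and 1.38 in MASM + TBI rats. Control rats were all above irradiated rats (adjusted p = 0.00377 in TBI and adjusted p = 0.00260 in MASM + TBI, limma). With background correction by normexp neither call held (adjusted p = 0.0969 and adjusted p = 0.103), and the scale of 75th percentiles ended that of MASM + TBI (adjusted p = 0.0624).

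Cd3d, the delta subunit, had a probe well above background on all 10 arrays and a different pattern. It gave 8.40, 8.95 and 8.72 in control rats, 7.98, 7.30 and 8.43 in TBI rats, and 8.16, 8.38, 7.35 and 8.25 in MASM + TBI rats. Control rats were the highest on average, TBI rats overlapped them narrowly, and MASM + TBI rats lay just below them. The log2 differences from control were -0.78 (95% interval -1.57 to 0.00, adjusted p = 0.214 in limma) and -0.65 (95% interval -1.39 to 0.08, adjusted p = 0.361). The smaller difference of Cd3d beside that of Cd3g was not tested as such. With normexp the differences in TBI rats lay closer together, -0.54 for Cd3d and -1.02 for Cd3g. Over the 10 arrays the deviations of Cd3d and Cd3g from their group means had a Pearson r of 0.0486, which is a description only.

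Cd3g and Cd3d are neighbours that point away from each other, with 1601 bases between their starts in the RefSeq table of build GRCr8, and Cd3e lies near them on the same chromosome. The array's own headers name another build. Promoters from 250 bases before to 50 bases after the start were found for 8 of the 10 genes; Cd4 and Cd8b had no entry. They are shown for these 3 neighbours, picked for the unlike values of their probes, and for Cd2, which fell in TBI rats. The difference between the 3 probes was not tested, and in TBI rats that between Cd3g and Cd3d was smaller with normexp. Capitals mark the ETS core AGGAAG and the RUNX core TGTGGT on either strand.
Cd3g, chr8:54183869-54184168, minus strand: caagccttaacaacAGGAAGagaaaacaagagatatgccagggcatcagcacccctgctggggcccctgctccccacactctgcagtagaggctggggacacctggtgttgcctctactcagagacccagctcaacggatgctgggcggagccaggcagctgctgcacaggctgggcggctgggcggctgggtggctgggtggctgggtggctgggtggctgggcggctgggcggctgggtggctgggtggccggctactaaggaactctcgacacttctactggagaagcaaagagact
Cd3d, chr8:54185269-54185568, plus strand: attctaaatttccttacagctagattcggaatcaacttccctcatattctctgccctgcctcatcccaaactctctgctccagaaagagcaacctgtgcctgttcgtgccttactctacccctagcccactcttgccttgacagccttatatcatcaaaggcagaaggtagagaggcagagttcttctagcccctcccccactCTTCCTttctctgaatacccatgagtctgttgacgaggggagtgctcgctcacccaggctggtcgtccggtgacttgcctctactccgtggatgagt
Cd3e, chr8:54211721-54212020, minus strand: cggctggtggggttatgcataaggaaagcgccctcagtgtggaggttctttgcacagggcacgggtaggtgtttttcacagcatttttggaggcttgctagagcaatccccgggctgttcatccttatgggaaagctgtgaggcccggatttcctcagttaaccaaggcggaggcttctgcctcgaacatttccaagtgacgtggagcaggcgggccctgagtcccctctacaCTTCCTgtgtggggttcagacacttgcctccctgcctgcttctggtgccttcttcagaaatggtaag
Cd2, chr2:191412610-191412909, minus strand: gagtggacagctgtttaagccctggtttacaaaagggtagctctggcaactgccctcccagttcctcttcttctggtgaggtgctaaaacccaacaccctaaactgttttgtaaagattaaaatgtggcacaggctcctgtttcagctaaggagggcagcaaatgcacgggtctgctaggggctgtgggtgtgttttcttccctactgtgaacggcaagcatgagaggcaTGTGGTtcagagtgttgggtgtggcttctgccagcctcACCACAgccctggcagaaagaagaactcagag

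The ETS core stood in 6 of the 8 member promoters and in 34.5% of 33469 promoters of the same length. The RUNX core stood in 1 of the 8, that of Cd2, and in 17.3% of all promoters. The E-box CANNTG stood in 6 of the 8 and in 72.1% of all, and neither AGATAA, the GATA core, nor the TATA box TATAAA was in any of the 8, against 11.6% and 14.2% of all promoters. A match of letters is a description, not a binding site.

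Cd4 is the coreceptor of helper T cells and, in the rat, also a macrophage protein. Its values were 5.0, 5.58 and 5.27 in control rats, 5.12, 6.80 and 6.07 in TBI rats, and 4.89, 5.04, 4.77 and 5.16 in MASM + TBI rats. TBI rats 2 and 3 were the highest of all rats, and the other 8 rats overlapped. Cd4 differed from control by 0.71 in TBI rats (95% interval -0.13 to 1.55, adjusted p = 0.285 in limma) and by -0.32 in MASM + TBI rats (95% interval -1.11 to 0.47, adjusted p = 0.735). With 1 rat left out the difference in TBI rats ran from 0.31, without TBI rat 2, to 1.15, without TBI rat 1 (adjusted p = 0.0475). The irradiated groups differed in Cd4 by -1.03, MASM + TBI minus TBI (adjusted p = 0.181 in limma). With 1 rat left out this ran from -1.47, without TBI rat 1 (adjusted p = 0.0254 in limma), to -0.63.

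Cd8a and Cd8b encode the chains of CD8, the coreceptor of cytotoxic T cells. The Cd8a probe gave 5.30, 6.06 and 5.84 in control rats, 3.63, 5.32 and 5.57 in TBI rats, and 4.36, 3.62, 4.30 and 3.60 in MASM + TBI rats. TBI rats 2 and 3 lay within the control range and TBI rat 1 with the MASM + TBI rats, all of which were below control. The log2 difference in TBI rats was -0.90 (adjusted p = 0.317 in limma), and ran from -1.26 to -0.29, without TBI rat 1, with 1 rat left out. That in MASM + TBI rats was -1.76 (95% interval -2.82 to -0.71, adjusted p = 0.0894 in limma). The latter passed the threshold without TBI rat 1 (adjusted p = 0.0198 in limma) and in a limma fit of the 2 groups alone (adjusted p = 0.0337). The probe was well above background on 1 of 4 MASM + TBI arrays, so the latter size is not exact.

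The Cd8b probe gave 5.98, 6.06 and 6.84 in control rats, 6.93, 7.51 and 6.78 in TBI rats, and 4.74, 4.89, 5.47 and 5.15 in MASM + TBI rats. The order was TBI, control, MASM + TBI; TBI and control overlapped, and the MASM + TBI rats stood below both groups. Cd8b was lower in MASM + TBI than in TBI rats by a log2 difference of -2.01 (95% interval -2.64 to -1.38, adjusted p = 0.0135 in limma; 4.04-fold), in 4 of 4 rats. This call did not hold with the methods' t-test (adjusted p = 0.251), which only 3 lower and 0 higher of all probes passed. With the replicate number as a block in limma the difference was -2.04, which did not pass either (adjusted p = 0.102). Against control it differed by -1.23 in MASM + TBI rats (adjusted p = 0.0555; 0.0290 among probes well above background and 0.0489 with the 75th percentile scale) and by 0.78 in TBI rats (adjusted p = 0.158). All 10 arrays measured it well above background. TBI rats lay alone on 1 slide, so slide and TBI cannot be told apart in any comparison with that group.

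**Figure D2:**
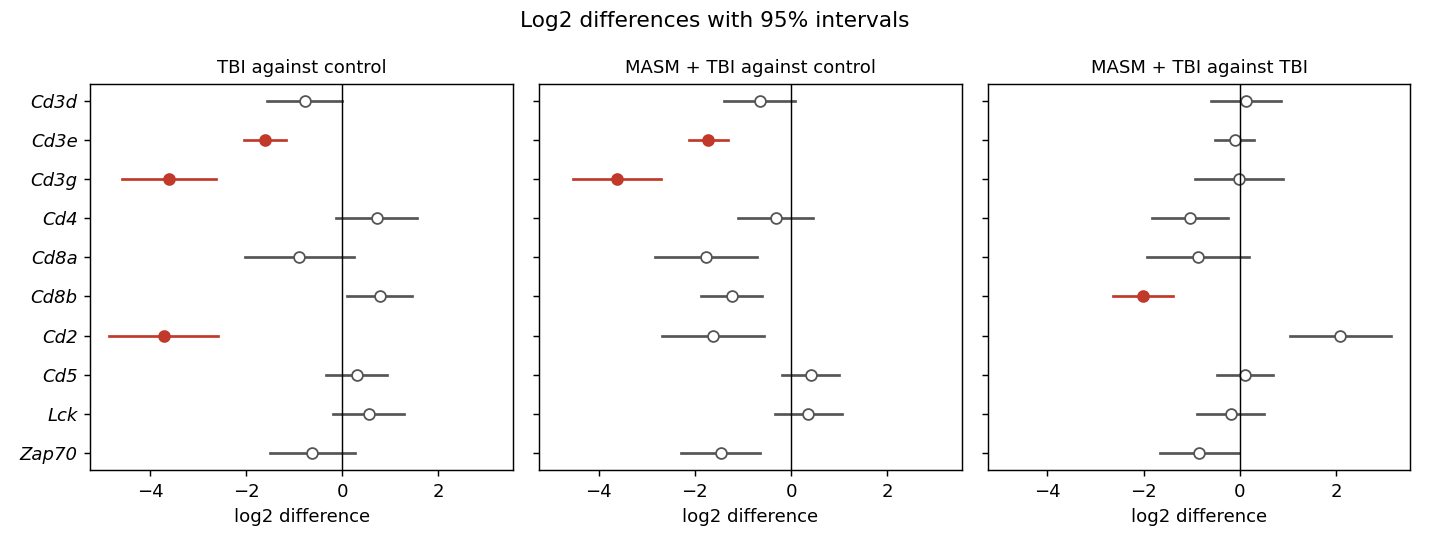
Log2 differences (x axis) of the T cell marker genes (y axis) in each comparison, with 95% intervals from limma. Filled red points passed an adjusted p under 0.05 and a fold of at least 1.5. Cd3g and Cd3e passed in both comparisons with control, Cd2 in TBI rats, and Cd8b in MASM + TBI against TBI.

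Cd2 encodes an adhesion receptor of T and NK cells that binds CD48 in rodents. Its values were 5.43, 5.0 and 5.20 in control rats, 1.28, 1.28 and 1.93 in TBI rats, and 4.0, 4.67, 3.18 and 2.51 in MASM + TBI rats. Control rats stood above all irradiated rats. The probe was well above background on 3 of 3 control arrays, 2 of 4 MASM + TBI arrays and no TBI array, so the fall in TBI rats is given as a bound. Every MASM + TBI value was above every TBI value, but with dim arrays in both groups this order is not taken as settled. Against control rats, Cd2 in TBI rats was lower by a factor of at least 5.13 (adjusted p = 0.00622 in limma, 3 of 3 rats), where the bound sets the dim group, on each array, at its own signal or at that of the dimmest probe well above background, whichever is higher. That dimmest probe stood at 2.54 to 3.17 on the TBI arrays, which were alone on their slide, and at 3.68 to 4.095 on the other arrays. The bound thus rests on that slide and would be smaller with the level of the other arrays. With normexp, whose offset compresses dim signals, its difference of -0.47 was under 1.5-fold (adjusted p = 0.0184). In MASM + TBI rats the log2 difference from control was -1.62 (95% interval -2.68 to -0.56, adjusted p = 0.112 in limma). Without MASM + TBI rat 2 it passed (adjusted p = 0.0481 in limma). MASM + TBI and TBI rats did not differ in Cd2 at the threshold (adjusted p = 0.0737 in limma). By the same bound MASM + TBI was higher by a factor of at least 1.67, with its own dim signals taken as they are. This bound too rests on the lower level of the TBI slide. In limma the groups did differ without MASM + TBI rat 4 (adjusted p = 0.0383) and with the 75th percentile scale (adjusted p = 0.0385). Under that scale the probes higher in MASM + TBI were 4238 instead of 314.

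Cd5, a receptor that dampens T cell receptor signalling, was well above background on no array, with values between 1.58 and 2.71. No comparison of it passed the threshold.

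Lck encodes the kinase that phosphorylates the CD3 subunits. Its values were 4.11, 4.98 and 4.79 in control rats, 4.97, 4.95 and 5.61 in TBI rats, and 5.52, 5.05, 4.44 and 4.94 in MASM + TBI rats. All groups overlapped, with differences from control of 0.55 (95% interval -0.19 to 1.29, adjusted p = 0.349 in limma) and 0.36 (95% interval -0.33 to 1.05, adjusted p = 0.644).

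Zap70 encodes the kinase that docks on phosphorylated CD3 chains. Its values were 6.78, 7.75 and 7.11 in control rats, 5.78, 7.16 and 6.84 in TBI rats, and 6.03, 6.01, 5.54 and 5.41 in MASM + TBI rats. TBI rats 2 and 3 lay within the control range, TBI rat 1 did not, and all MASM + TBI rats were below control. The difference from control in TBI rats was -0.62 (adjusted p = 0.372 in limma), and ran from -0.90 to -0.22, without TBI rat 1, with 1 rat left out. That in MASM + TBI rats was -1.46 (95% interval -2.29 to -0.64, adjusted p = 0.0731 in limma). The latter passed in limma without TBI rat 1 (adjusted p = 0.0347) and among probes well above background (adjusted p = 0.0391).

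The median log2 difference of the 10 genes was -0.70 in TBI rats, -1.35 in MASM + TBI rats and -0.88 in both together against control, where the median over all probes was -0.03, 0.00 and -0.01. With normexp these medians were -0.16, -0.32 and -0.21. For MASM + TBI against TBI the median was -0.15 (-0.33 to -0.05 with 1 rat left out; -0.52 over the 8 genes well above background), against 0.04 over all probes. With 1 rat left out the median in TBI rats ran from -0.90 to -0.25. In TBI rats 6 of 10 differences were below 0, against 54.4% of all probes, and in MASM + TBI rats 8 of 10, against 48.9%, where the 10 include Cd3e and Cd5.

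Within an array, Cd3d minus Cd4 shows whether a CD3 subunit and a coreceptor shared with macrophages changed by the same factor. It was 3.39, 3.37 and 3.46 in control rats, 2.86, 0.51 and 2.36 in TBI rats, and 3.27, 3.34, 2.59 and 3.1 in MASM + TBI rats. All irradiated rats were below all control rats, and TBI rat 2 was the lowest. The difference was -1.50 in TBI rats (exact two-sided permutation p = 0.1, the smallest that 3 against 3 allows), and TBI rats 3 of 3 were below control. In MASM + TBI rats it was -0.33 (exact permutation p = 0.143). With 1 rat left out the former ran from -1.97 to -0.80, the smallest without TBI rat 2, and the latter from -0.42 to -0.17.

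For MASM + TBI against TBI the difference was 1.17 (exact permutation p = 0.0571; 0.46 to 1.64 with 1 rat left out), and for all irradiated rats against control -0.83 (exact permutation p = 0.158). None of these passed as given. MASM + TBI against TBI did with 75th percentile scaling (1.25, exact permutation p = 0.0286). All irradiated rats against control did in 1 of 10 settings with 1 rat left out. With Cd3g in place of Cd3d, chosen after seeing that Cd3g had the largest difference of the CD3 subunits, the values were -4.32 in TBI rats and -3.30 in MASM + TBI rats, which are descriptions with no test and inexact, since Cd3g was dim in irradiated rats.

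All control rats shared slide 1 with MASM + TBI rat 3, no group but TBI was on slide 2, and the remaining MASM + TBI rats were on slide 3. Slide 2 arrays had 64.1% to 70.1% of spots well above background, against 56.2% to 60.2% on the other arrays, and the part of this in the results for dim probes was not tested.

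Other genes of T cell receptor signalling came from a fixed list of 28, of which 19 were measured. In both comparisons with control 2 were lower and 0 higher, among them Lat, the adaptor that ZAP-70 phosphorylates. Lat gave 5.94, 6.63 and 6.66 in control rats, 5.12, 5.32 and 5.56 in TBI rats, and 5.06, 5.59, 5.04 and 5.32 in MASM + TBI rats. Control rats stood above all irradiated rats, which overlapped each other. Lat differed by -1.08 in TBI rats (adjusted p = 0.0357 in limma) and by -1.15 in MASM + TBI rats (adjusted p = 0.0314). Between the irradiated groups none of the 19 passed. At an unadjusted p in limma 4 were lower in TBI and 6 in MASM + TBI rats than in control rats, 3 were lower in MASM + TBI than in TBI rats, and 0 were higher. Beside these and the counts of the lists below stand the shares of all probes. After adjustment they were 2.49% lower and 2.01% higher in TBI, 1.43% and 0.926% in MASM + TBI, and 0.625% and 0.767% between the irradiated groups. Without adjustment they were 6.09% lower and 6.53% higher in TBI, 4.55% and 3.52% in MASM + TBI, and 4.83% and 3.15% between the irradiated groups. Csk, the brightest probe of the list, carried most of its summed level, which was 13.64 to 14.22 on the log2 scale over all rats.

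Of 20 costimulation, cytokine receptor and homing genes, 17 were measured, and 2 were lower and 0 higher in both comparisons with control. Cd6, a costimulatory receptor of T cells, gave 6.96, 7.37 and 7.04 in control rats, 5.11, 5.51 and 5.85 in TBI rats, and 5.87, 5.76, 5.21 and 5.42 in MASM + TBI rats. Control rats stood above all others. Cd6 differed by -1.64 in TBI rats (adjusted p = 0.00825 in limma) and by -1.56 in MASM + TBI rats (adjusted p = 0.0100), on a probe well above background on all 10 arrays; its other probe was well above background on none. Unadjusted counts in limma were 2 lower and 2 higher in TBI rats and 4 lower and 1 higher in MASM + TBI rats. Between the irradiated groups none of the 17 passed, with 3 lower and 0 higher at an unadjusted p in limma. Cd7 had the brightest probe, and the summed level was 9.57 to 10.27 in control, 9.20 to 10.18 in TBI and 8.91 to 9.36 in MASM + TBI rats.

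Of 15 transcription factors of the T lineage 9 were measured. In TBI rats 1 was higher, Tox, which gave 8.52, 8.30 and 8.52 against 7.93, 7.71 and 7.82 in control rats (log2 difference 0.63, adjusted p = 0.0136 in limma), and 0 were lower; the unadjusted counts in limma were 1 higher and 1 lower. None of its other probes reached well above background on any array. In MASM + TBI rats Tox gave 7.80, 8.03, 7.82 and 7.90, and none of the 9 genes passed against control, with 2 lower and 0 higher at an unadjusted p in limma. Against TBI rats Tox differed by -0.56 (adjusted p = 0.0310 in limma), which was under 1.5-fold, and 0 of the 9 passed (1 lower and 0 higher at an unadjusted p in limma). The summed level was 9.39 to 10.41 over all rats.

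**Figure D3:**
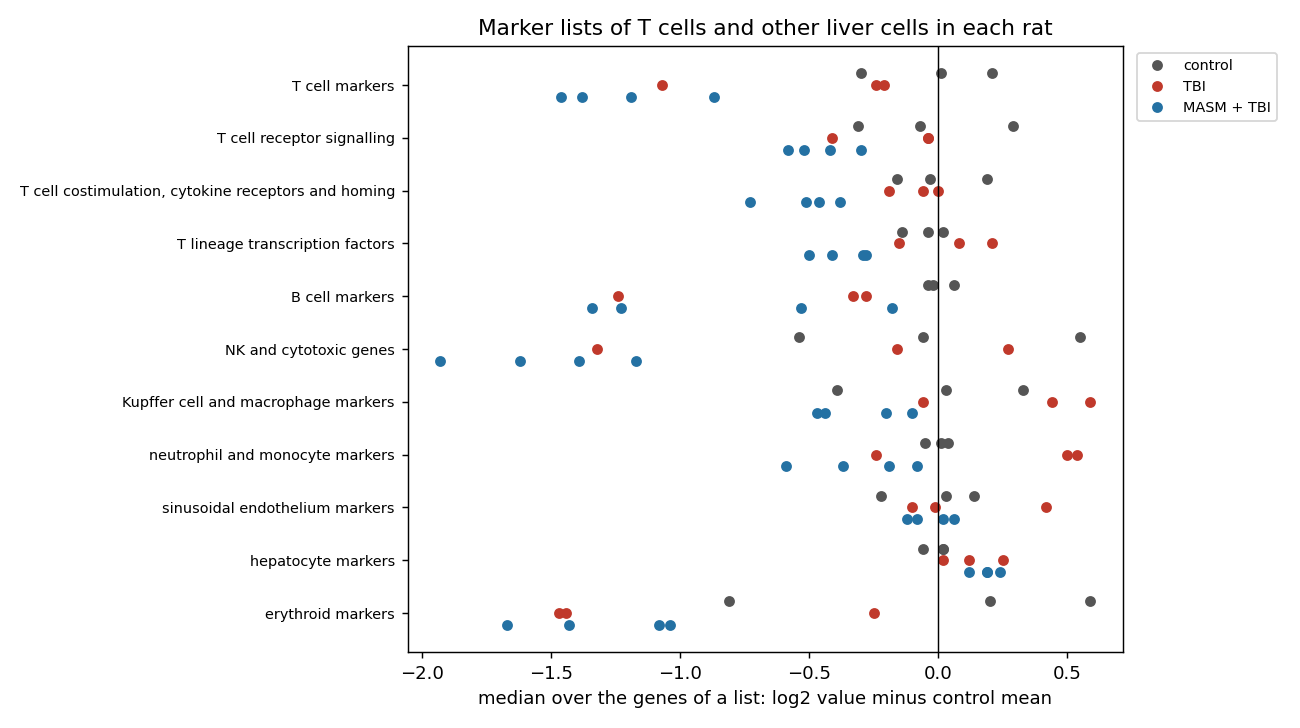
Median over the genes of each marker list (y axis) of the log2 value minus the control mean (x axis), with 1 point for each rat. In the list of NK and cytotoxic genes TBI rat 1 was at -1.32 and the MASM + TBI rats were between -1.93 and -1.17, whereas hepatocyte markers stayed between -0.06 and 0.25.

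Markers of other cells differed as well, and their part in the results above was not tested. Of 14 NK and cytotoxic genes 10 were measured. None passed in TBI rats in limma, with 1 lower and 0 higher at an unadjusted p, and 1 was lower in MASM + TBI rats: Klrk1, which encodes the activating receptor NKG2D (log2 difference -1.64, adjusted p = 0.0495). At an unadjusted p in limma 7 of the 10 were lower in MASM + TBI than in control rats and 4 than in TBI rats, and 0 were higher. The summed level of the list, whose brightest probe was that of granzyme A (Gzma), was 11.30, 12.46 and 11.95 in control rats, 10.48, 12.18 and 11.75 in TBI rats, and 10.78, 10.58, 10.35 and 9.83 in MASM + TBI rats. TBI rat 1 and all MASM + TBI rats were below every control rat, which also held for Cd8a and Zap70. The median log2 difference of the list was -0.47 in TBI and -1.45 in MASM + TBI rats. Of its defining markers, Klrd1 was well above background on 8 of 10 arrays and Ncr1 on 2 of 10.

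Of 15 B cell markers 11 were measured. Cd79b, part of the B cell receptor, was lower than in control rats by a factor of at least 4.97 in TBI rats (adjusted p = 0.00484 in limma). In MASM + TBI rats it was lower by at least 2.55 (adjusted p = 0.00378 in limma). These bounds differ through the dimmest signal well above background, which was lower on the TBI arrays. The irradiated groups themselves differed in Cd79b by -0.11 (adjusted p = 0.906 in limma), with no array well above background in either. Fcrla fell in MASM + TBI rats (adjusted p = 0.0216 in limma) and was well above background on 1 of 4 arrays there, so no size is given. Cd79b and Fcrla made 1 lower in TBI and 2 lower in MASM + TBI rats, and 0 higher. At an unadjusted p in limma 3 and 4 were lower and 0 higher. Between the irradiated groups 0 passed, with 1 lower at an unadjusted p in limma. The summed level, led by Cd22, was 9.04 to 9.08 in control rats, 8.08, 9.02 and 9.0 in TBI rats, and 7.86 to 8.52 in MASM + TBI rats.

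Of 16 Kupffer cell and macrophage markers all 13 measured were well above background on all arrays of a group, and none passed in limma in any comparison. At an unadjusted p in limma 7 were lower and 0 higher in MASM + TBI than in TBI rats, and 1 was higher and 0 lower in TBI than in control rats; MASM + TBI and control rats differed in 0. Their summed level, led by Clec4f, was 16.59, 17.19 and 16.93 in control rats, 16.66, 17.50 and 17.21 in TBI rats, and 16.57, 16.66, 16.37 and 16.32 in MASM + TBI rats. TBI rats 2 and 3, which were also highest for Cd4, were the highest of all 10. The defining markers were bright in every rat: Clec4f between 14.86 and 16.04, and Cd163 between 7.55 and 8.47.

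Among 12 neutrophil and monocyte markers 11 were measured, and Fcnb was lower in both comparisons with control (log2 difference -1.49, adjusted p = 0.00274 in limma, and -1.75, adjusted p = 0.00123), with 0 higher. The median log2 difference of the list was 0.46 in TBI and -0.44 in MASM + TBI rats, and the unadjusted counts in limma were 1 and 2 lower and 0 higher. Between the irradiated groups 0 passed, with 4 lower and 0 higher at an unadjusted p in limma. Their summed level, led by Lyz2, was 11.92 to 12.36 in control, 11.61 to 12.97 in TBI and 11.18 to 11.63 in MASM + TBI rats. Of 7 erythroid markers 4 were measured, 0 passed in TBI rats in limma (2 lower and 1 higher at an unadjusted p), and 1 was lower in MASM + TBI rats: Ahsp, which encodes a chaperone of alpha globin (log2 difference -1.39, adjusted p = 0.0386), with 3 lower and 0 higher at an unadjusted p. The irradiated groups differed in 0 of the 4, also at an unadjusted p in limma. The summed level of the erythroid list, led by Hbb, was 11.02 to 12.31 in control, 10.42 to 11.44 in TBI and 10.30 to 10.85 in MASM + TBI rats.

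Hepatocyte and endothelial lists showed the tissue. All 11 hepatocyte markers were measured and none passed in limma; with an unadjusted p under 0.05 and the 1.5-fold cut, 0 did in TBI rats and 1, higher, in MASM + TBI rats. Their summed level was 20.55 to 20.82 over all rats, with Tf the brightest probe and Alb between 17.57 and 17.89. Of 11 endothelial markers 7 were measured, and none passed in limma in any comparison, with 0 in TBI and 1, lower, in MASM + TBI rats at an unadjusted p and the 1.5-fold cut. Their summed level, led by Kdr, was 13.72 to 14.39.

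The genes most like the mean of the 8 members well above background, out of 9557 genes compared over the same 10 arrays, were Mcpt8, Gimap5, Mcpt8l2, Rhoh, Fbxw17, Klrk1, Ctse, Irgm, Adm and Pacs1. Their Pearson r lay between 0.961 and 0.984. This ranking rests partly on the group difference, and rats of 1 group share their treatment and mostly their slide. By deviations from the group means the closest genes were Bcl2a1, Mcpt8, Plscr1, Rpia, Plvap, Ly86, Rgs10, B2m, Syk and Unc119, with r between 0.962 and 0.984. Mcpt8 stood in both rankings. These are descriptions of 10 arrays.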

How the data were processed

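Per the file headers, the authors scanned 4-sample slides of rat whole-genome arrays and deposited spot intensity values (processed signal, background-subtracted and linear) with other columns that flag each spot, made by Feature Extraction 10.7.3.1 (10.7 in the submitters' processing notes). Between the deposited value table and the scanner files the largest difference was 0.

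Here 1639 control spots and flagged outlier spots (76 to 112 an array) were left out, the rest of the 43379 non-control spots were log2 transformed and quantile normalized over 10 arrays, and spots were averaged into 41012 probes, of which 40945 had a value on every array. No spot was saturated. Of 20707 probes with a RefSeq transcript accession, 16968 matched a symbol in the RefSeq table of build GRCr8; other probes are unnamed here, and the brightest probe stood for a gene. limma 3.58.1 in R 4.3.3 fitted a mean per group over all arrays, with Benjamini-Hochberg adjustment over all 40945 probes, and was tested on simulated data. A call is an adjusted p under 0.05 and a fold of at least 1.5. Named list genes come from those called in any comparison, the brightest, and defining markers; not every such gene is named. Members and lists were chosen with earlier results of these data known. The number of arrays limits precision.

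Alternatives were 75th percentile scaling, normexp with offset 50 on median pixel values, the deposited table, a filter on dim probes, fits of 2 groups, a trended robust prior, the methods' test, other thresholds, replicate and slide blocks, linear means and leaving out each rat.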

Additional observations from a re-analysis of the deposited data

Results flagged for a closer look

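Cd8b was singled out because the irradiated groups differed in their distance from control. The log2 difference from control was 0.78 in TBI rats and -1.23 in MASM + TBI rats, and the test of their difference gave -2.01 (limma, adjusted p = 0.0135). No MASM + TBI rat reached the lowest TBI rat. With the methods' t-test, or with the replicate number as a block, the difference was about as large but did not pass. Among the 4 MASM + TBI rats, 0 of 23 quantities (the 10 genes, 2 combined values of them and 11 summed lists) had a rat standing far from the others, where chance gives about 1 in 20.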

How the results depend on the processing

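Of 782 gene-level comparisons under alternatives, 727 kept their direction and side of the threshold. Unless stated, the cause of a change was not tested.

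TBI against control, lower genes: 1 with normexp and 0 with the methods' t-test after adjustment, against 3. Higher genes: 1 at an unadjusted p. The median was -0.16 with normexp. MASM + TBI against control, lower genes: 4 with the filter on dim probes (fewer probes adjusted over; Cd3g and Cd8a, 2 of the 4, were well above background on 1 of 4 MASM + TBI arrays), 4 in a fit of the 2 groups, 0 with the methods' t-test, 6 with that test or limma at an unadjusted p, 5 with slide as a random block and 1 with slide as a fixed block, where the estimate rests on MASM + TBI rat 3 and the spread on other groups, against 2; the median was -0.32 with normexp. MASM + TBI against TBI, lower genes: 0 with the methods' t-test and 3 at an unadjusted p, against 1. Higher genes: 1 with 75th percentile scaling, the filter, the methods' t-test at an unadjusted p (added after seeing the data), limma at an unadjusted p, and slide as a random block, against 0. This gene, Cd2, meets the filter through control arrays alone, so the filter lends it no support. The median was -0.52 with the filter, which left 8 genes. Both irradiated groups against control, lower genes: 1 with normexp, 6 at an unadjusted p and 5 with slide as a random block, whose estimated correlation was -0.133, against 3. The median was -0.21 with normexp. No share of all probes is given for these alternatives in both irradiated groups, nor for the filter and the slide blocks in any comparison. Those counts therefore have no background to stand against. Cd3d minus Cd4 passed in MASM + TBI against TBI with 75th percentile scaling (1.25, exact permutation p = 0.0286); Cd3g minus Cd4 (-3.30 in MASM + TBI and -3.73 in all irradiated rats) was chosen for its difference after seeing the data, so no test is read from it.

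Leaving out 1 rat at a time gave, for TBI against control, 0 to 1 higher genes and a median of -0.90 to -0.25; for both irradiated groups against control, 2 to 3 lower genes (Cd2 did not pass without control rat 3); for MASM + TBI against control, 2 to 4 lower genes; for MASM + TBI against TBI, 1 to 2 lower and 0 to 1 higher genes; and for Cd3d minus Cd4, -1.97 to -0.80 in TBI, -0.42 to -0.17 in MASM + TBI, 0.46 to 1.64 in MASM + TBI against TBI and -0.96 to -0.49 in all irradiated rats. Without TBI rat 1, Cd4 was the higher gene in TBI (1) and a lower gene in MASM + TBI against TBI, and 4 genes were lower in MASM + TBI against control. Cd3d minus Cd4 in all irradiated rats against control passed in 1 of 10 such settings.

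Differences near 0 changed sign. Those of Cd3e and Cd5, which no array measured well above background, are listed for their sign alone. In MASM + TBI against TBI, Cd3e was 0.495 with 75th percentile scaling and 0.004 with normexp, Cd3g 0.021 with slide as a random block and 0.016 from linear means; with 1 rat left out Cd3d ran from -0.17 to 0.40, Cd3e from -0.203 to 0.054, Cd3g from -0.37 to 0.28, Cd5 from -0.11 to 0.26 and Lck from -0.366 to 0.028. Lck was -0.19 in MASM + TBI against control with slide as a fixed block. In all irradiated rats Cd8b was 0.078 from linear means and ran from -0.38 to 0.05 with 1 rat left out, and Cd4 from -0.004 to 0.415.

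Labels share replicate numbers, and the deviations of same-numbered rats had r of -0.28 to 0.30 over 9 pairs, 4 above 0.1. Differently numbered rats were not compared, so whether the numbers pair the rats is not settled. With the replicate number as a block 0 genes were lower in MASM + TBI against TBI (Cd8b adjusted p = 0.102), Cd3g was 0.19 there, and no other call changed.

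Over all probes, 1021 were lower and 821 higher in TBI against control, but 5341 and 1609 with 75th percentile scaling (76.8% against 55.4% lower), 348 and 205 with normexp, 510 and 433 in a fit of the 2 groups, and 4 and 6 with the methods' t-test (1586 and 1314 unadjusted). In MASM + TBI against control they were 584 and 379, 302 and 153 with normexp, and 10 and 18 with that test (1337 and 1017). In MASM + TBI against TBI they were 256 and 314, 899 and 4238 with 75th percentile scaling (17.5% against 44.9% lower), 11 and 68 with normexp (13.9%), 115 and 140 with the 2 groups, and 3 and 0 with that test (815 and 834). Averaging probes of a gene was not run, since each of the 10 T cell marker genes had 1. Signal near background limits Cd3e and Cd5, Cd2 and Cd3g in irradiated rats, and Cd8a in MASM + TBI rats.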
